A study of Mus musculus with 2 samples.

Results

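The genes described here are 52 members of the Wnt pathway, chosen by name: 19 Wnt ligands, 15 receptors (10 Frizzled receptors and 5 co-receptors), 8 secreted inhibitors, 3 R-spondins and 7 intracellular effectors, out of 21938 protein-coding genes of GENCODE M21. All 52 were found in the annotation. Open chromatin was mapped by DNase-seq, which sequences the ends of DNA fragments that the enzyme DNase I releases from nuclei, in the urinary bladder of female B6CASTF1/J mice at 4 days of age. This strain is an F1 hybrid of C57BL/6J and CAST/EiJ parents, and the deposited peaks do not separate the parental alleles. The labels name no treatment and 1 group of 2 biological replicates. The females carry different numbers but the same donor identifier, and the spread between the replicates may be partly technical. There was no contrast between groups. The labels name tissue, so each library is a mixture of the organ's cell types, in which fewer cells with an open site and less opening per cell cannot be told apart.

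Wnt proteins are secreted, lipid-modified ligands that bind Frizzled receptors together with co-receptors, and binding to Frizzled with Lrp5 or Lrp6 stabilises β-catenin (Ctnnb1), which enters the nucleus and acts with the DNA-binding TCF/LEF factors. Secreted inhibitors capture ligands or co-receptors, R-spondins raise receptor levels at the membrane, and Axin proteins hold the complex that destroys β-catenin. In the bladder, Wnt signals are known from the exchange between the stroma and the urothelium, the epithelium that lines the lumen.

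A promoter was called open in a replicate if a peak of the looser of its 2 deposited peak lists overlapped a window of 500 bp up- and downstream of an annotated transcription start site (TSS) of the gene, and its height is the authors' deposited height of the tallest such peak. The looser lists held 96518 peaks in replicate 1 and 122870 in replicate 2, with median heights of 0.512 and 0.321, and heights rise in steps of 0.00466 and 0.00417. Promoter heights tended to be lower in replicate 2, with a median log2 ratio (replicate 2 over replicate 1) of -0.41 (SD 0.27 over genes) for all promoters open in both. Promoters of marker genes were open in both replicates for 5 of 6 smooth muscle, 5 of 5 fibroblast, 3 of 8 urothelium, 3 of 4 endothelium and 2 of 3 mesothelium genes, and for 0 of 4 immune and 0 of 4 glial and neuronal genes. Over all protein-coding genes, 62.3% were open in both replicates. Among the urothelial markers, neither replicate had a promoter peak at Upk1a, Upk3b or Krt20, and Upk2 and Krt5 had a peak in a single replicate. Actg2, of the smooth muscle list, also had a peak in a single replicate, and Upk3b is counted in the mesothelium list too.

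Of the 52 members, 43 (82.7%) had an open promoter in both replicates, beside 62.3% of all protein-coding genes. The same 43 of 52 were open in each replicate alone, where the background was 65.4% in replicate 1 and 64.7% in replicate 2. No member was open in a single replicate, while 685 of all 21938 genes (3.12%) were open in replicate 1 only and 526 in replicate 2 only. The roles differed in this count: 15 of 15 receptors, 7 of 7 effectors, 3 of 3 R-spondins and 7 of 8 secreted inhibitors were open, against 11 of 19 ligands (57.9%). All receptors, effectors and R-spondins had a promoter ratio of observed to expected CpG above 0.6, and 94.6% of all such genes were open. This ratio was taken within 500 bp of the TSS nearest the tallest promoter peak (replicate 1, or else 2). Genes without a peak in either replicate were measured at the first annotated TSS. The site thus depended on the peak calls. How much of a difference between open and unopened genes comes from this choice was not tested. The stricter lists kept 27 of 52 members (51.9%), beside 55% of all genes, and these were 15 receptors, 5 ligands, 5 effectors, 2 inhibitors and 0 R-spondins. The receptors were thus the 1 role in which every promoter was open in both kinds of list. The stricter lists are not a cut on height: their median heights were 0.750 in replicate 1, above that of the looser list, and 0.258 in replicate 2, below it.

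**Figure D1:**
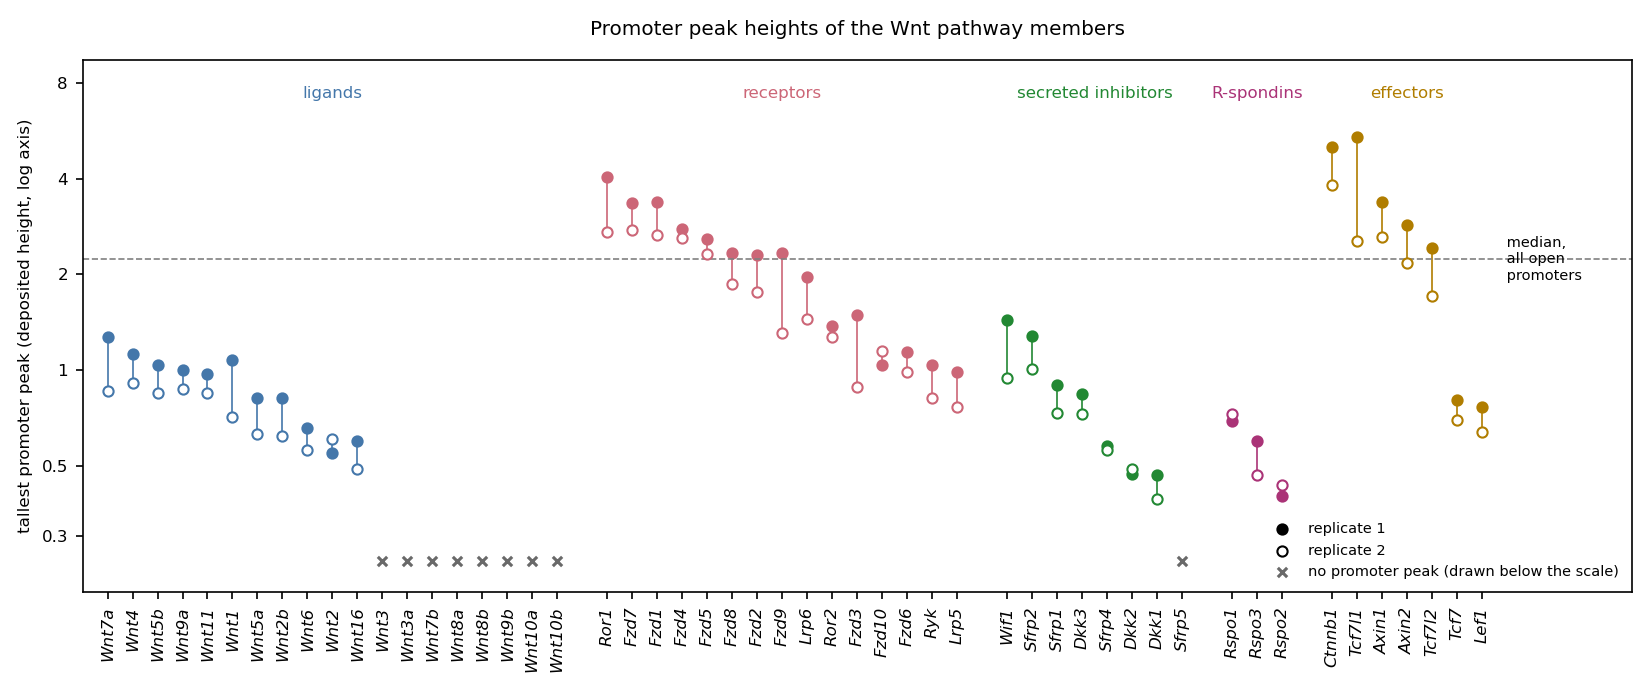
Height of the tallest promoter peak (log axis, deposited units) of each member in replicate 1 (filled) and replicate 2 (open), by role, with members that have no promoter peak drawn as crosses below the scale and the median over all open promoters (2.23) dashed. All 11 open ligands, 7 inhibitors and 3 R-spondins have both replicates below that line, while receptors and effectors lie on both sides of it.

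Open did not mean tall. The median over members of the mean height of the replicates was 1.02, against 2.23 over all open protein-coding promoters, and 9 of 43 members lay above that overall median. Ligands had a median of 0.894 (range 0.542 to 1.07), inhibitors 0.782 (0.429 to 1.19) and R-spondins 0.531 (0.417 to 0.707), and no member of these 3 roles exceeded the overall median. Receptors had a median of 1.83 (0.875 to 3.39), with 5 of 15 above it, and effectors 2.51 (0.701 to 4.42), with 4 of 7 above it. The plot of percentiles by role shows the same order on the scale of all open promoters.

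**Figure D2:**
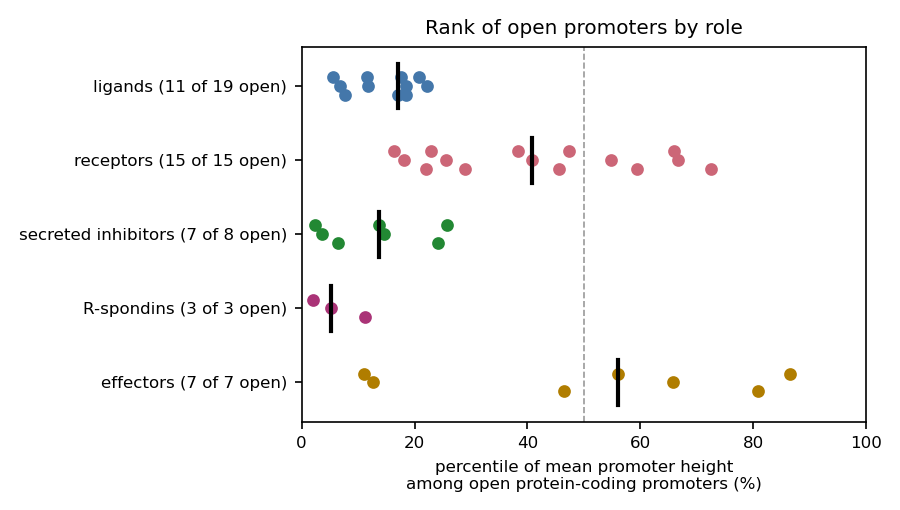
Percentile of each open member's mean promoter height among all open protein-coding promoters (x axis, %), by role, with a black bar at the median of the role and a dashed line at 50%. The ligands end at 22.2%, whereas the receptors reach 72.5% and the effectors 86.5%.

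Among the ligands, Wnt7a, an epithelial ligand in several organs, had the tallest promoter, at 1.27 in replicate 1 and 0.859 in replicate 2 (1.07 ± 0.292, SD, n = 2). Wnt4, a ligand with roles in urogenital development, stood at 1.12 and 0.909 (1.02 ± 0.151). Wnt5b and Wnt9a followed at 1.03 and 0.846 (0.940 ± 0.132) and at 1.00 and 0.871 (0.936 ± 0.0917). The exact 95% Poisson intervals of Wnt7a, from its 273 and 206 steps, were 1.12 to 1.43 and 0.746 to 0.985. They take a step as a single count, which the sources used here do not state, and cover counting error only. The order of these 4 ligands differed between the replicates, with Wnt7a highest in replicate 1 and Wnt4 in replicate 2. Wnt7a was no longer called open with a window of 250 bp, which left 10 ligands, and it had no promoter peak in the stricter list of replicate 2. The next below were Wnt11 (mean 0.910), Wnt1 (0.894), Wnt5a (0.722), a ligand best known for β-catenin-independent signalling, and Wnt2b (0.718), and the lowest open ligands were Wnt6 (0.608), Wnt2 (0.577) and Wnt16 (0.542). With the promoter window widened to 1000 bp, the mean height of Wnt9a became 2.18 and that of Wnt11 became 1.90. The Wnt9a value is that of a region centred 1066 bp downstream, which is counted below among its distal regions.

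Promoters of 8 ligands had no peak in either replicate: Wnt3, Wnt3a, Wnt7b, Wnt8a, Wnt8b, Wnt9b, Wnt10a and Wnt10b. Sfrp5, a secreted Frizzled-related inhibitor, was the other member without one. Below the peak threshold, the deposited list of false discovery rates had an entry in the window of 1 of these 9 members in each replicate, at 0.0432 for Wnt9b in replicate 1 and 0.0290 for Wnt7b in replicate 2. Over all genes without a promoter peak, 2.68% had a listed rate in replicate 1 and 3.04% in replicate 2. As a group the unopened members were richer in CpG than all unopened genes. Their median promoter GC content was 62.0%, against 46.2% for all unopened genes. Their median ratio of observed to expected CpG was 0.617, against 0.187 for all unopened genes and 0.802 for open members. The value for open members comes from the TSS nearest the tallest peak, and so from a site chosen by its openness. The unopened members were split. Ratios at the first annotated TSS were below 0.6 at Wnt7b (0.455), Wnt10a (0.394), Wnt8b (0.326) and Wnt8a (0.254), and other starts were not measured. Of 40 members with a ratio above 0.6, 35 were open (87.5%), beside 94.6% of all such genes, and the 5 exceptions were 4 ligands and Sfrp5. Such a ratio was found at all 15 receptors, 7 effectors and 3 R-spondins, and at 11 of 19 ligands, of which 7 were open. Among inhibitors it was found at 4 of 8, of which 3 were open. By role, the median ratio was 0.625 for ligands, 0.584 for inhibitors, 0.734 for R-spondins, 0.821 for receptors and 0.853 for effectors, beside 0.598 for all genes. Apart from the R-spondins, the roles fall in the same order by this ratio as by median promoter height.

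In 3 of 4 pairs of neighbouring Wnt genes, 1 gene was open and the other had no peak. Wnt1 was open and Wnt10b, 11.7 kb away on the opposite strand, had no peak. Wnt9a was open and Wnt3a, 16.2 kb away, had none, while Wnt3 and Wnt9b, 24.3 kb apart, both had none. Wnt6 had a peak in both replicates and Wnt10a, 9.08 kb downstream, had none. The Wnt6 call rests on peaks at different start sites, since its tallest peaks in the replicates lie 10020 bp apart. When the same region had to be called in both replicates, Wnt6 was lost and 42 of 52 members remained, beside 62.1% of all genes. The tallest promoter peaks of the replicates also did not overlap for Wnt2b, Wnt16, Lrp5 and Lef1, each of which had 2 or 3 promoter regions called in both.

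The tallest receptor promoter was that of Ror1, a receptor tyrosine kinase that binds Wnt5a, at 4.06 and 2.71 (3.39 ± 0.952, SD, n = 2). Among Frizzled receptors, Fzd7 stood at 3.36 and 2.76 (3.06 ± 0.426), Fzd1 at 3.38 and 2.66 (3.02 ± 0.512) and Fzd4 at 2.79 and 2.60 (2.70 ± 0.133). The Fzd4 peak also falls in the promoter window of Tmem135, so its height cannot be given to 1 of these genes. Fzd5 was the other receptor above the overall median, with a mean of 2.46. Fzd5 (2.59 and 2.32) was the lowest of these 5 in both replicates, and the order of Ror1, Fzd7 and Fzd1 differed between them.

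The other Frizzled promoters had means of 2.10 (Fzd8), 2.03 (Fzd2), 1.83 (Fzd9), 1.19 (Fzd3), 1.09 (Fzd10) and 1.06 (Fzd6). Lrp6, a co-receptor for β-catenin signalling, had 3 shared promoter regions, the tallest at 1.96 and 1.45, whereas Lrp5, the other such co-receptor, reached 0.987 and 0.763. Ror2 (1.37 and 1.27) and the atypical receptor Ryk (1.04 and 0.817) completed the co-receptors. In both replicates the Lrp6 values were above both of Lrp5. The median of the Frizzled receptors was 2.06 and that of the co-receptors 1.32. With a window of 250 bp the Fzd7 mean was 2.00, since the tallest peak of replicate 2, but not that of replicate 1, then lies outside the window.

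Among secreted inhibitors, Wif1, which binds Wnt ligands, had 1.44 and 0.946 (1.19 ± 0.348, SD, n = 2). Sfrp2 had 1.28 and 1.00 (1.14 ± 0.195), Sfrp1 had 0.899 and 0.730 (0.814 ± 0.120) and Dkk3 had 0.838 and 0.725 (0.782 ± 0.0797); the Sfrp proteins carry a Frizzled-like domain. Wif1 and Sfrp2 overlap each other, and in both replicates both were above Sfrp1 and Dkk3. Sfrp4 (mean 0.568), Dkk2 (0.479) and Dkk1 (0.429), where Dkk1 is the classical antagonist of Lrp5 and Lrp6, were lower. The Dkk2 mean was 0.815 with a window of 1000 bp, which is the value of a region centred 1051 bp upstream that is counted below as distal.

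R-spondin promoters were open but low. Rspo1 stood at 0.689 and 0.725 (0.707 ± 0.0257, SD, n = 2), Rspo3 at 0.596 and 0.467 (0.531 ± 0.0913) and Rspo2 at 0.400 and 0.434 (0.417 ± 0.0234). The values of the 3 genes do not overlap, and the lowest of Rspo1 exceeded the highest of Rspo3. They lay at percentiles 11.2, 5.21 and 2.07 of all open promoters. The Rspo2 peaks held 86 and 104 steps, with Poisson intervals of 0.320 to 0.495 and 0.354 to 0.525. The interval of Rspo3 in replicate 2, 0.384 to 0.562, overlaps both. In replicate 1 the intervals of Rspo1 (0.583 to 0.810) and Rspo3 (0.497 to 0.709) overlap as well. None of them was kept in both stricter lists.

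Effectors split into a tall and a low set. Ctnnb1, which encodes β-catenin, had 5.02 and 3.82 (4.42 ± 0.849, SD, n = 2), the highest mean of all members. Tcf7l1, the TCF factor best known as a repressor, had 5.40 and 2.54 (3.97 ± 2.02), but its mean was 2.08 with a window of 250 bp, below Axin1 and Axin2. Axin1 had 3.39 and 2.63 (3.01 ± 0.533) and Axin2, a feedback target of the pathway, had 2.85 and 2.17 (2.51 ± 0.482). Tcf7l2 followed at a mean of 2.06. Tcf7 (0.806 and 0.696) and Lef1 (0.764 and 0.638), TCF/LEF factors prominent in lymphoid cells, were below every value of these 5 effectors.

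The replicates differed most for Tcf7l1. Its log2 ratio, replicate 2 over replicate 1, was -1.09, and 0.205% of genes in the same quartile of promoter heights had a ratio as low or lower. The Poisson intervals were 5.09 to 5.72 in replicate 1 and 2.34 to 2.75 in replicate 2. This peak lies 347 bp upstream of a TSS, and the adjoining region, 28 bp downstream of it, had 2.32 and 1.84. Fzd9 (-0.84) and Fzd3 (-0.75) had the next lowest ratios, with 5.24% and 9.72% of their quartiles as low. Fzd10 and Wnt2 (both 0.14) and Rspo2 (0.11) had the highest, and all are low promoters. The median ratio was -0.28 over all genes in the lowest quartile of heights, which holds 26 of the 43 open members, and -0.42 to -0.45 in the other quartiles. The genes in this paragraph were picked after their values were seen.

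Distal regions were sites called in both replicates with the centre over 1000 bp from any TSS, assigned to whichever protein-coding gene had the closest TSS, up to 100 kb away, a rule that does not show which gene a site acts on. The members had 146 of 25833 such regions: 53 nearest to ligands, 54 to receptors, 14 to inhibitors, 3 to R-spondins and 22 to effectors. At least 1 was nearest to 43 of 52 members (82.7%), beside 43.6% of all genes. For Rspo2 the only such region also overlaps the promoter window and is counted as a promoter region too. The mean was 2.81 per member and 1.18 per protein-coding gene. Members also had more sequence nearest to them, with a median stretch of 105 kb against 45.0 kb. Per 100 kb of that stretch, pooled over genes, ligands had 3.87 regions, receptors 3.24, effectors 1.84, inhibitors 1.50 and R-spondins 0.753, beside 1.54 for all genes. Counting only regions at or above the median height of the list in both replicates, the rate was 3.43 for ligands, 1.68 for receptors and 1.59 for effectors, beside 1.01 for all genes. Such regions were nearest to 42 of 52 members (80.8%), beside 37.3% of all genes.

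Most distal regions of ligands and effectors were of at least median height. Of the 53 at ligands, 47 reached the median height of the list in both replicates (88.7%), as did 19 of 22 at effectors (86.4%), 11 of 14 at inhibitors (78.6%), 28 of 54 at receptors (51.9%) and 1 of 3 at R-spondins, beside 65.6% of all distal regions. Of the 26 low regions at receptors, 25 were nearest to Fzd9, Ror1 or Ryk. The other 12 receptors had 20 regions, of which 19 reached the median height. The median of the mean height was 1.14 at ligands, 0.821 at inhibitors, 0.788 at effectors, 0.502 at receptors and 0.670 over all distal regions. Ligand regions also lay closer, at a median of 9.87 kb from the TSS against 38.8 kb for receptors and 14.2 kb for all. The receptor medians of height and distance include the 25 low regions of Fzd9, Ror1 and Ryk. Most of these lay 36.0 to 47.6 kb from a TSS, so the medians do not describe the other 12 receptors. Among the 1000 tallest distal regions of the data, 8 were nearest to members (5.48% of their 146), beside 3.87% of all distal regions, and 5 of these 8 were at ligands.

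**Figure D3:**
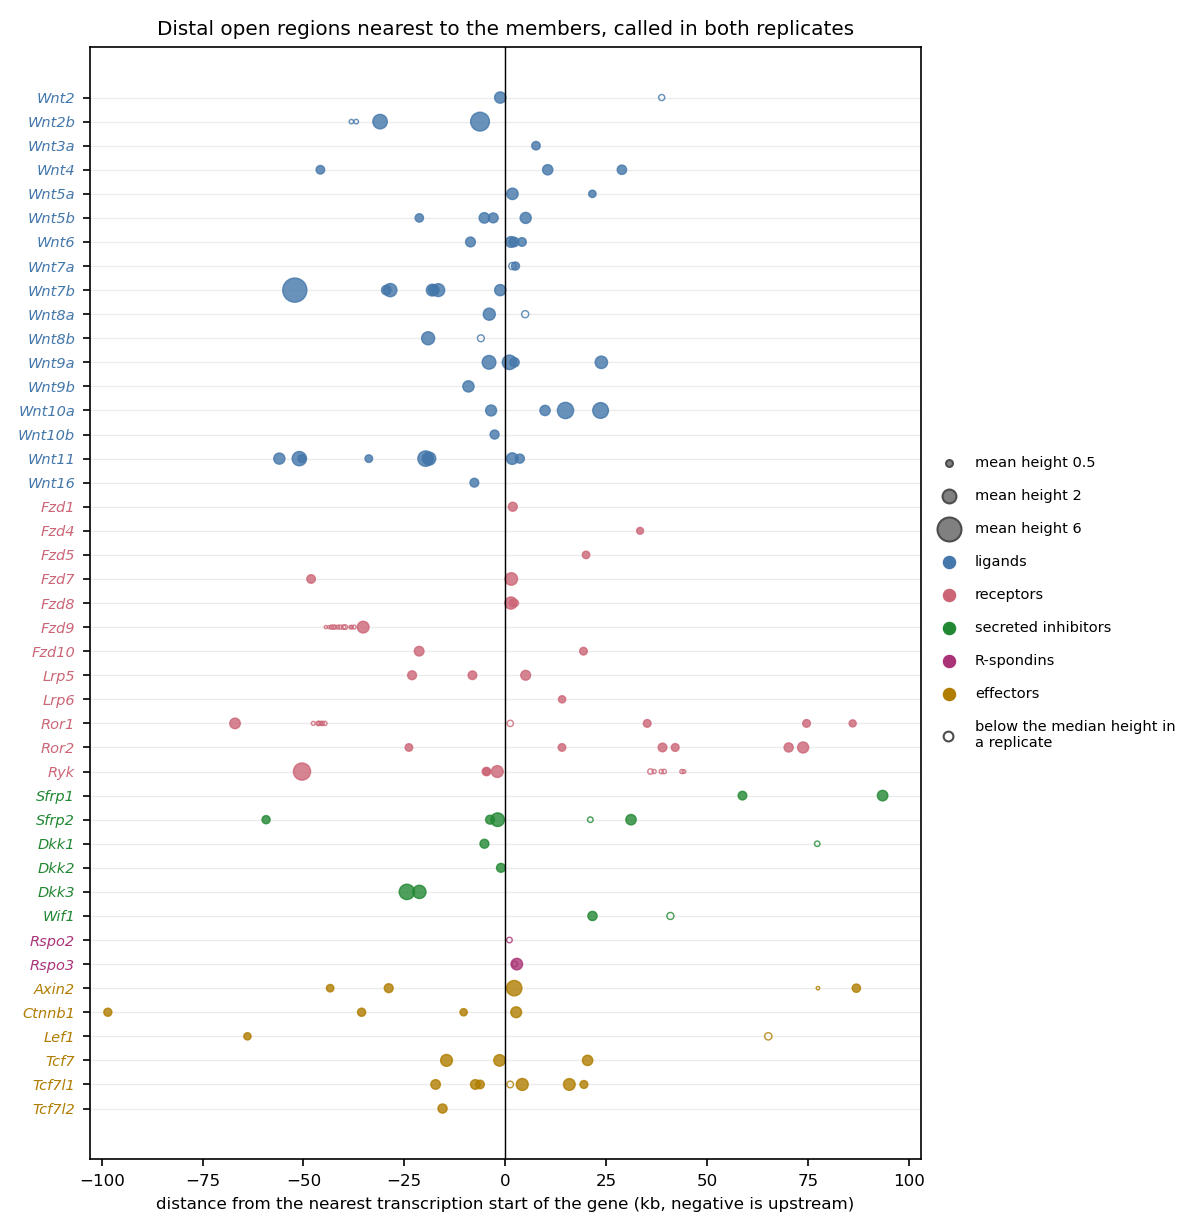
Distance of each shared distal region from the nearest TSS of its member (x axis, kb) for the 43 members with at least 1 region, coloured by role, with circle area proportional to mean height and open circles for regions below the median height in at least 1 replicate. The largest circle is the region upstream of Wnt7b (6.07), and rows of small open circles mark the low patches near Fzd9, Ror1 and Ryk.

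The tallest distal region of all members was 52.1 kb upstream of Wnt7b, an epithelial ligand whose own promoter had no peak. It stood at 7.23 and 4.91 (6.07 ± 1.64, SD, n = 2), rank 32 of 25833, and lies outside annotated genes. Wnt7b had 7 distal regions, all at or above the median height, and the nearest, 1238 bp upstream, had 1.48 and 1.12. For each role the sequence of the tallest region is shown, so that the sites behind these values can be read, with the bases under deposited footprints of both replicates in capitals (mm10, plus strand, RefSeq GRCm38.p6 sequence). The windows are chr15:85634516-85634715 near Wnt7b, chr9:102784481-102784640 near Ryk, chr7:112183321-112183520 near Dkk3, chr10:29532901-29533080 near Rspo3 and chr11:108925301-108925500 near Axin2.
Wnt7b: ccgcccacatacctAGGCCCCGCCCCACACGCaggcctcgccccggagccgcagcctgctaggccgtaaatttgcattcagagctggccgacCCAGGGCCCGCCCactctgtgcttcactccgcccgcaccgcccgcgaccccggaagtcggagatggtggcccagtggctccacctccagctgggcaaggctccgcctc
Ryk: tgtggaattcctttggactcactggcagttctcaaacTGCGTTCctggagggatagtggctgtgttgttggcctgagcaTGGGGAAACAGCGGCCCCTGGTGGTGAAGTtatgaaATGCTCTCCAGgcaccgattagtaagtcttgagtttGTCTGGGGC
Dkk3: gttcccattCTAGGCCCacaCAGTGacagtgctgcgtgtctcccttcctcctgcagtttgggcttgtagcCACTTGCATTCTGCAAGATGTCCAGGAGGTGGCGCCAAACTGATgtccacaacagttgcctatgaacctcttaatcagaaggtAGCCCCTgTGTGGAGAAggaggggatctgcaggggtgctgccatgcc
Rspo3: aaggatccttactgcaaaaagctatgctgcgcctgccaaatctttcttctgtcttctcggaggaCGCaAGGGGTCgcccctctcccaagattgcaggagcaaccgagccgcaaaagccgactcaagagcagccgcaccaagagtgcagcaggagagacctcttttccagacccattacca
Axin2: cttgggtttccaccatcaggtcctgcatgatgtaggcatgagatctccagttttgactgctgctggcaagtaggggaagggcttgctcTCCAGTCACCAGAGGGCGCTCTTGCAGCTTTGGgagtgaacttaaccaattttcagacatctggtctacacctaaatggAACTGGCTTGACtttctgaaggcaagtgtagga
The Wnt7b window had a GC content of 71.0%, and the highest of the other 4 was 55.5%.

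The region near Ryk, 50.4 kb upstream of a TSS and in an intron of Gm47416, had 3.95 and 2.18 (3.06 ± 1.26, SD, n = 2). That of Dkk3, 24.4 kb upstream, had 3.06 and 1.83 (2.45 ± 0.872). The Axin2 region, in an intron 2.23 kb downstream of the nearest TSS, had 2.42 and 2.53 (2.48 ± 0.0774), and that of Rspo3, in its own intron 2.88 kb downstream, had 1.67 and 1.09 (1.38 ± 0.413). The Axin2 region was higher in replicate 2, unlike the other 4. A string for CTCF, the insulator protein, with up to 1 mismatch, was searched on both strands in the central 150 bp after these sequences had been seen. It was present near Ryk, Dkk3 and Axin2 and in 4 of the 8 member regions among the 1000 tallest. Of all 1000 tallest distal regions 50.9% had it, of all distal regions 29.2% and of the 146 at members 27.4%.

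Among the other ligands, Wnt2b had a region 6.24 kb upstream at 4.52 and 2.86 (3.69 ± 1.18, SD, n = 2), rank 205, against a promoter mean of 0.718. Wnt10a, whose promoter had no peak, had a region 14.9 kb downstream at 3.31 and 2.18 and another 23.6 kb downstream at 2.57 and 2.56. Wnt11 had 9 distal regions, the most of any ligand, all at or above the median height, and the tallest, 19.7 kb upstream, had 3.05 and 1.91. Tcf7l1 had 7 regions, all in its own introns, the tallest at 1.59 and 1.40. Of the 8 ligands without an open promoter, only Wnt3 had no distal region.

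Wnt9a had regions 1066 bp downstream at 2.45 and 1.92 and 4.01 kb upstream at 2.20 and 1.69, both above its promoter mean of 0.936. Wnt6 had 4 regions, the tallest, 1.44 kb downstream, at 1.35 and 1.07. Ror2 had 6, of which 5 lay in its own introns, and the tallest, 73.8 kb downstream, had 1.45 and 1.07. The tallest of the 5 regions of Sfrp2 lay 1.88 kb upstream and had 2.19 and 1.67, above its promoter in both replicates. Ctnnb1 had 4 regions, the tallest in its own intron at 1.25 and 1.19, below its promoter at 5.02 and 3.82. Of all 146 regions, 74 were intergenic (50.7%, beside 45.3% of all distal regions), 58 intronic and 14 exonic, and the intergenic ones included 12 of the 14 at inhibitors. Members without any distal region were Wnt1, Wnt3, Fzd2, Fzd3, Fzd6, Sfrp4, Sfrp5, Rspo1 and Axin1.

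The highest counts belonged to receptors with low patches. Fzd9 had 13 distal regions, of which 12 were below the median height and lay 37.4 to 44.5 kb upstream, partly in Fkbp6. The remaining region of Fzd9, 35.2 kb upstream, had 1.64 and 1.22. Ror1 had 11, of which 7 were below the median height, and Ryk had 10, of which 6 were. Counts within a single replicate were more uneven: the regions nearest to Wif1 numbered 4 in replicate 1 and 51 in replicate 2, those of Wnt5a 2 and 27, those of Wnt4 25 and 6 and those of Wnt2b 29 and 6. Of these, 2, 2, 3 and 4 regions were called in both, so counts of distal regions are used here only where both replicates share them.

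The DNA string bound by TCF/LEF factors, CTTTGAT or CTTTGAA, was searched on both strands. In the central 150 bp it was found in 6 of 146 distal regions of the members (4.11%), beside 3.58% of all distal regions. Over the whole merged region the order turned, with 5.48% at members and 6.24% overall. The FOX string TGTTTAC was found in 1 (0.685%, beside 1.54%), the TEAD string GGAATG in 17 (11.6%, beside 9.26%) and the AP-1 string TGANTCA in 10 (6.85%, beside 6.14%). Of the AP-1 matches, 6 were among the 22 regions of effectors, and of the TEAD matches 10 were among the 53 of ligands. A footprint, a short stretch protected from DNase I within open chromatin, lay in 125 of the 146 regions in replicate 1 (85.6%, beside 85.2% of all distal regions) and in 129 in replicate 2 (88.4%, beside 83.9%).

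Within 500 bp of the promoter TSS, the site used for the CpG ratio, the TCF/LEF string was found in 12 of 52 members (23.1%). The share was 24.1% of all genes, and 4 of 7 effectors had it. Among genes with an open promoter this window held it in 11 of 43 members (25.6%) and in 18.2% of all genes. The window reaches beyond the open regions. Fzd7, Fzd1, Fzd10, Tcf7l1 and Wnt5b had no string inside a promoter region called in both replicates. Wnt11 had a string in such a region, at another TSS, and is not among the 12. Axin2, the feedback gene, had 4 such strings in its open promoter regions, which are shown with their flanks because they fall in the stepwise row of regions at its start (string in capitals, 5′ to 3′ on the strand of the string, mm10). They lie at chr11:108920427-108920433, chr11:108920790-108920796, chr11:108921232-108921238 and chr11:108921252-108921258, in that order. The string of the Tcf7 promoter, chr11:52283368-52283374, and that of a distal region 67.0 kb upstream of Ror1, chr4:100028763-100028769, are both on the minus strand. They are added because they too were overlapped, by at least 1 bp, by footprints of both replicates.
Axin2 string 1: agccggctgcgCTTTGATaaggtcctggc
Axin2 string 2: tcggctcgcgcCTTTGAAgtgcacagtta
Axin2 string 3: cggccggcgcgCTTTGATgtgcggggcgg
Axin2 string 4: gcggggcggcgCTTTGAAgttggcaggcc
Tcf7: gcccgcggtgcCTTTGATgttccgacccg
Ror1: tgggtctttggCTTTGAAaacatcaagag
Axin2 string 1 was overlapped by a footprint in both replicates, string 2 in replicate 1 alone, string 4 in replicate 2 alone and string 3 in neither. A match of letters is a description of the sequence and does not show binding.

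The regions that hold these strings fell in height along Axin2: 2.85 and 2.17 at string 1, 1.73 and 1.36 at string 2, 0.964 and 0.821 at the region with strings 3 and 4. The next region, without a string, had 0.824 and 0.596. Both replicates thus had the same order over the 4 promoter regions. The Tcf7 region had 0.806 and 0.696 and the Ror1 region 1.21 and 1.10.

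**Figure D4:**
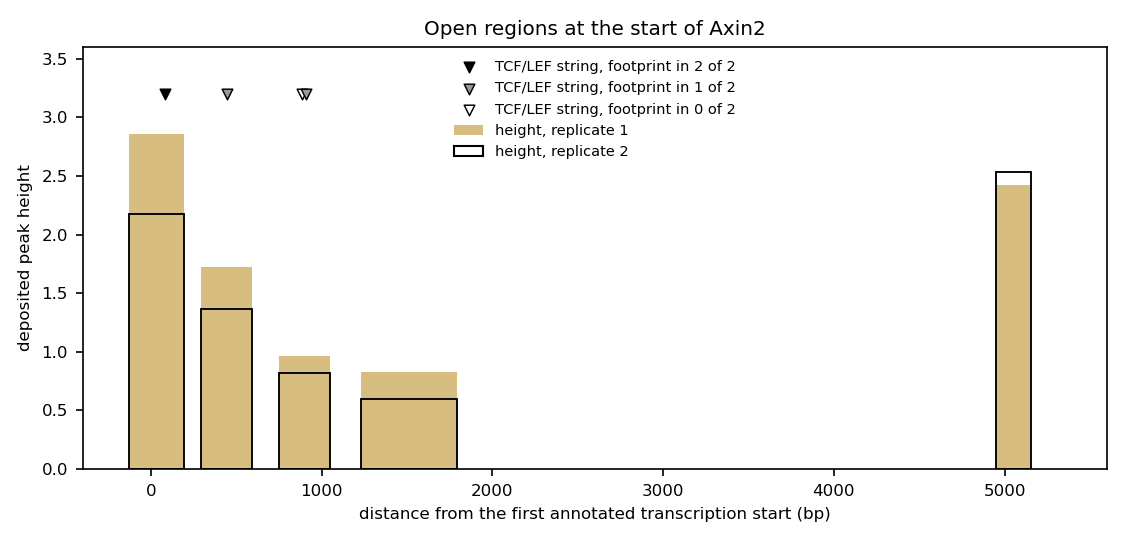
Deposited height of the shared regions at the start of Axin2 in replicate 1 (filled bars) and replicate 2 (outlines) against the distance from its first annotated TSS (bp), with triangles at the TCF/LEF strings shaded by the number of replicates with a footprint overlapping them. Heights step down over the 4 promoter regions from 2.85 to 0.824 in replicate 1, and the intronic region on the right has 2.42 and 2.53.

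Other genes of the pathway, from a list of 64, were open at a share like that of the members. A promoter peak was present in both replicates for 53 (82.8%), beside 62.3% of all protein-coding genes. For 6 it was present in a single replicate and for 5 in neither. All 15 Dishevelled and destruction complex genes were open, with a median mean height of 3.92, led by Btrc (6.57), which targets β-catenin for degradation, and the kinase gene Gsk3b (6.06). Of 17 nuclear cofactors and feedback targets, 15 were open, led by the co-repressor Tle4 (7.67) and the chromatin remodeller Chd8 (6.59). Of 10 planar polarity genes 9 were open, led by Invs (2.54, a peak shared with the window of Erp44) and Prickle1 (2.39), and the 3 secretion genes were open, led by the ligand acyltransferase gene Porcn (1.63) and the carrier gene Wls (0.973). Among R-spondin receptors and ubiquitin ligases, Znrf3 (4.45) and Lgr4 (2.99) led and Lgr6 had no peak. Of 14 other extracellular modulators, 7 were open (50%, below the share of all genes), led by Kremen1 (2.70) and Apcdd1 (2.28). Rspo4, Kremen2, Sost and Sostdc1 had no peak in either replicate.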

How the data were processed

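DNase-seq peaks of 2 replicates were analysed as deposited in mm10. The authors deposited a signal, the height, for each peak. For its scale, the aligner, the peak caller, the read filters and the total depth, the sources used here name nothing. Heights were checked for a common step in each sample and fitted whole steps in 100% of peaks (tolerance 0.02 steps). With a step taken as a single count, which was not tested, taller peaks, with more steps, carry less counting error. The median peak of the looser list held 110 steps in replicate 1 and 77 in replicate 2. A p-value column that the authors deposited holds false discovery rates of up to 0.05 for stretches of bases, and that of the footprints is 0.01 for all of them. Of each sample's 2 peak lists, the longer was taken as the looser.

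Genes and TSSs came from GENCODE M21. Peaks overlapping by at least 1 bp between replicates were merged into shared regions (53490). The shared distal region height is that of its tallest peak in each replicate. The stretch of a gene is the sequence to which its TSSs are nearest, up to 100 kb. No group contrast exists, so no test was run. Analyses used Python 3.11.15, numpy 2.4.6, pandas 2.3.3, scipy 1.17.1, pysam 0.24.0 and matplotlib 3.10.9, and scripts were tested on simulated data. In each role the 4 tallest open promoters, members without a peak, the 6 members with the most distal regions and the tallest distal regions were named by rule, and of other pathway lists the 2 tallest and those without a peak. Other names were added after their values were seen. The members, lists, strings and tests were chosen with earlier results of these data known.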

Additional observations from a re-analysis of the deposited data

How the results depend on the processing

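Windows of 250 and 1000 bp, starts of protein-coding transcripts alone, a median height minimum and each replicate alone kept the promoter counts of all members and of each role within 1.5 times. The stricter lists did not: 27 members, 5 ligands, 2 secreted inhibitors and 0 R-spondins were open. Distal counts with the stricter lists were 84 for all members, 34 for ligands, 31 for receptors, 9 for inhibitors, 1 for R-spondins and 9 for effectors. With the minimum on height, receptors had 28 distal regions and R-spondins 1. With a single replicate the distal counts ranged from 353 to 393 for all members, 119 to 138 for ligands, 113 to 144 for receptors, 48 to 89 for inhibitors, 3 to 5 for R-spondins and 36 to 51 for effectors, since no overlap is then required. A limit of 50 kb, a minimum of 500 bp and an overlap of at least 50% of the shorter peak kept distal counts within 1.5 times. Requiring the same promoter region in both replicates, and counting distal regions per 100 kb of stretch, were chosen after seeing the data.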
